A study of Rattus norvegicus with 36 samples.

Results

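Kidney RNA of 3 rats given mercuric chloride was compared with that of 3 rats given sham surgery, all 6 killed at 8 h. These 6 arrays, 1 per rat, are 6 of the 36 arrays and 2 of the 9 groups of a study of early ischemic and nephrotoxic kidney injury in 31 rats, and they were chosen by their titles, which carry the treatment, the time and the rat's number. All rats were male, 6 to 8 weeks old, and no strain or genetic change is given in the labels used here. The mercury rats received 4 mg/kg of mercuric chloride under the skin and had no operation. The sham rats had 40 min of sham surgery and no injection. The contrast therefore holds mercury, the injection and the absence of surgery together, and these cannot be told apart. RNA came from a portion of whole kidney, so a lower level can mean fewer cells of a type or less RNA per cell, and the 2 cannot be told apart in these arrays.

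Mercuric chloride is a classic nephrotoxin. Mercuric ions bind sulfhydryl groups of glutathione, cysteine and proteins, and are taken up mainly by the proximal tubule, the segment that reabsorbs most of the filtered glucose, amino acids, phosphate and organic anions and that makes glucose and burns fatty acids. Cells meet thiol-reactive agents with several transcriptional programs. Nrf2, freed from the thiol-rich sensor Keap1, turns on genes of glutathione, detoxification and drug export. HSF1 turns on heat shock proteins that refold damaged proteins, ATF4 turns on genes of amino acid supply, and MTF1 turns on metallothioneins, which bind metals.

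The arrays were 1-colour CodeLink oligonucleotide arrays with 9911 probes. Each intensity is given here as a multiple of its array's median, so that 1 is the middle of the array, with values under 0.1 raised to 0.1 for the test. Differences are on the log2 scale, mercury minus sham, with the standard error (SE) of the limma fit over 3 and 3 rats, and a gene was called where its p, adjusted by Benjamini-Hochberg over all 9040 probes tested, was under 0.05. A p-value sets the group difference against the spread between rats, which limma draws toward that of all probes. The fit had 4 residual and a median of 7.4 total degrees of freedom, and the number of rats limits the precision. On the 6 arrays 94 to 124 probes were missing and 6.69% to 10.46% lay at the floor, with mercury rat 3 highest at 10.46% and sham rat 1 lowest at 6.69%. The mean correlation of an array with the others of its own group was 0.9866 to 0.9913, and with those of the other group 0.9718 to 0.976. The values of sham rat 3 stood out of line with the probe names as deposited (correlation with the other arrays 0.0652) and were moved by 2 lines (0.9843). All results use the moved values, and in the deposited order 1 probe was called. The series used 2 lots of arrays, and the labels do not say which array is of which lot. The 6 arrays share 47 probes missing on all 12 arrays of a set and on none of the other 24, so by this sign both groups come from 1 lot. The fit of all groups together also takes its spread from arrays outside that set. A call lost in that fit need not reflect the spread between these 6 rats.

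At 8 h the expression of many genes differed between the groups, and most differences were small. Of the 9040 probes, 1729 were called (19.1%), 784 higher (8.67%) and 945 lower (10.5%) after mercury. At least 2-fold differences were called for 279 probes (3.09%), 136 higher (1.5%) and 143 lower (1.58%), and more than 4-fold differences for 17 higher and 10 lower. The median log2 difference over all probes was -0.03 with an SD of 0.44 over probes, and the median SD between rats was 0.155 in the mercury and 0.110 in the sham group. The count of called probes fell to 1067 without mercury rat 1, 908 without sham rat 1, 1028 without sham rat 2 and 946 without sham rat 3, and to 1134 when all groups of the series were fitted together, while the counts of at least 2-fold calls lay between 256 and 328 without any 1 rat.

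**Figure D1:**
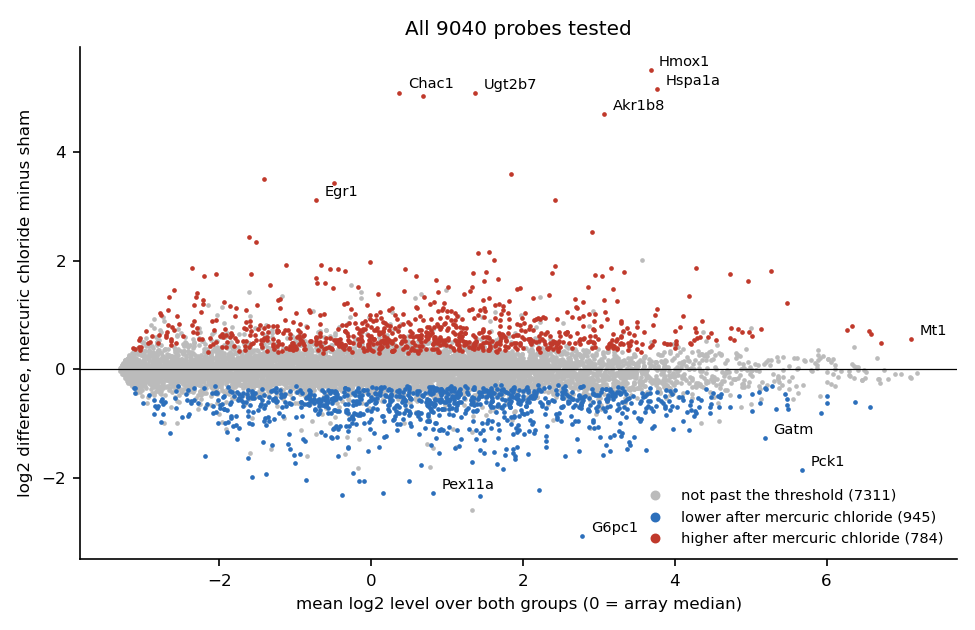
Each point is 1 of the 9040 probes tested, with its mean level over all 6 arrays (log2 of the multiple of the array median) on the horizontal axis and the log2 difference, mercury minus sham, on the vertical axis; coloured points passed an adjusted p of 0.05. Most called probes lie within 1 log2 unit of 0, while Hmox1, Hspa1a, Chac1, Ugt2b7 and the dimmer probe of Atf3 lie above 5 and G6pc1 lies at -3.07.

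The 15 largest rises among called genes whose groups did not overlap were led by stress genes. They were, in order, Hmox1, Hspa1a, Chac1, Ugt2b7, Akr1b8, Srxn1, Abcc2, Egr1, Atf3, Tnfrsf12a, Chd7, Mthfd2, Clu, Klf6 and Nefm. The 15 largest falls were led by G6pc1 and comprised Pex11a, Zfp354a, Nme4, Slc16a6, Tmem82, Dgkg, Pck1, Gldc, Cldn3, Cwc27, Slc25a25, Epb41l3, Nr1i2 and Crtap besides. Of these 30 genes, 29 were called in all 15 alternative analyses with sham rat 3 in its moved order, and Pck1 was the exception. Absence of overlap was a condition for these genes and is no result of theirs; over all probes tested 39.7% had groups that did not overlap.

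**Figure D2:**
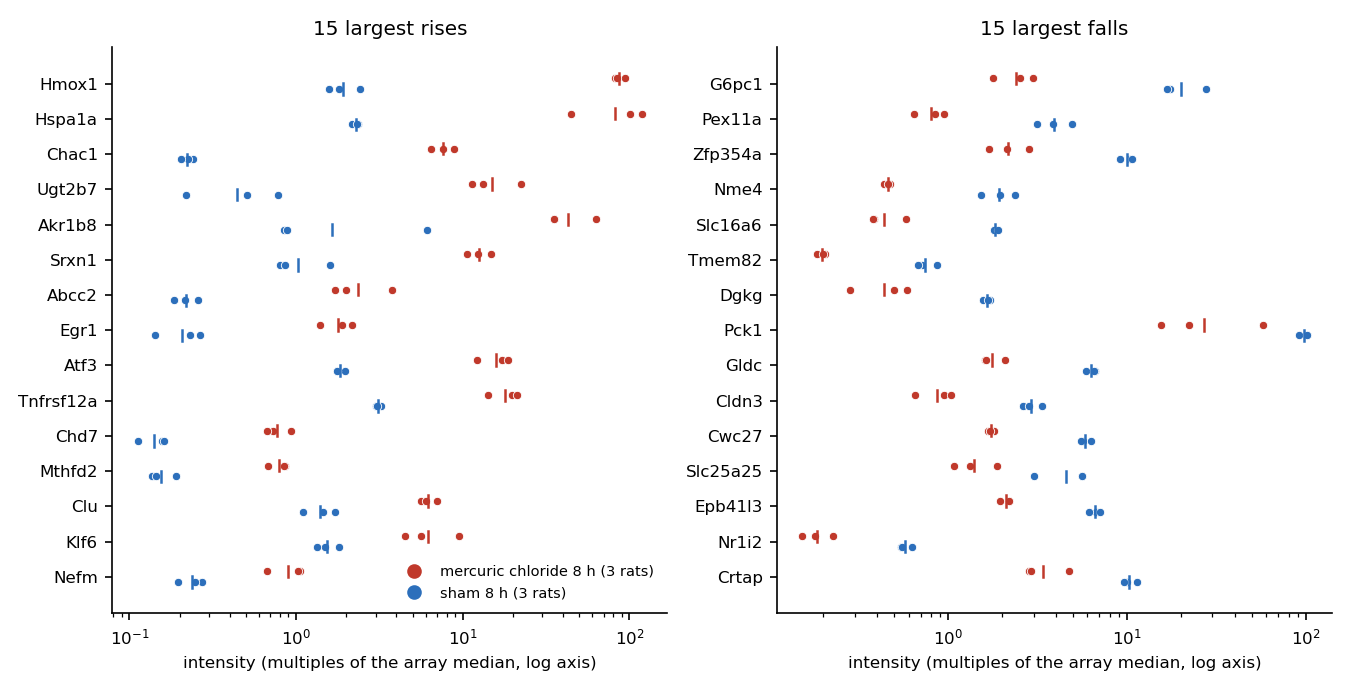
Intensity in multiples of the array median, on a log axis, for the 15 largest rises and the 15 largest falls, with 1 point per rat (3 mercury and 3 sham). Hmox1 stands at 81.9 to 94.3 in mercury rats against 1.58 to 2.41 in sham rats, and Akr1b8 shows a sham rat at 6.07 above the other sham rats at 0.84 and 0.882.

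Heme handling changed at several steps. Hmox1, heme oxygenase-1, which breaks heme down to biliverdin, carbon monoxide and iron, read 94.3, 81.9 and 84.5 in the mercury rats and 1.82, 1.58 and 2.41 in the sham rats. The groups were far apart and the mercury rats close to each other. The log2 difference was 5.51 ± 0.16 (SE, n = 3 and 3), or 45.5-fold, with a limma adjusted p of 9.46e-06. Slc40a1, the iron exporter ferroportin, rose 3.43-fold from 2.63, 2.74 and 3.15 in sham rats to 8.99, 7.4 and 13.7 in mercury rats (adjusted p 0.00227). Alas1, the first enzyme of heme synthesis, rose 2.19-fold (1.13 ± 0.10, adjusted p 6.37e-04), whereas Alad, the next enzyme of that path, whose zinc-bound thiols make it sensitive to metals, fell by 0.74 ± 0.10 (adjusted p 0.00354). In the list of 16 genes of heme and iron, 12 were tested, with a median difference of -0.03. Among them 3 rose (25%, against 8.67% of all probes) and 1 fell (8.33%, against 10.5%), and 4 fell without mercury rat 3. Fth1, the ferritin heavy chain, read 60, 3 and 75.3 in mercury rats and 61.2, 2.52 and 1.33 in sham rats. Both groups held high and low rats, and it was not called (2.02 ± 1.68, adjusted p 0.453).

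Metallothionein, the textbook metal-induced gene, was already bright in the sham rats and differed little. Mt1 read 179, 156 and 171 in mercury rats and 118, 98.4 and 128 in sham rats. The groups did not overlap, and the difference was 0.56 ± 0.12, or 1.47-fold (adjusted p 0.0204). The call was lost without mercury rat 1 (0.0688), without sham rat 1 (0.06) and without sham rat 2 (0.0569), and in the fit of all groups together (0.266), with 0.00821 to 0.266 over the alternatives. Whether near-identical metallothionein transcripts bind this probe was not tested. Of 11 tested genes of metal binding and selenoproteins 2 rose (Mt1 and Txnrd1; 18.2%, against 8.67% of all probes) and 1 fell (9.09%, against 10.5%), Dio1, the selenoenzyme that activates thyroid hormone. Dio1 read 6.72, 7.25 and 12.3 against 16.1, 16.6 and 16.1 (-0.95 ± 0.22, adjusted p 0.0234), and its call was lost when any rat other than mercury rat 3 was left out (0.0669 to 0.0721). Mtf1, the metal-sensing factor itself, differed by 0.41 ± 0.16 (adjusted p 0.121). The Mt1 promoter is shown because it carries many matches to TGCNCNC, the motif searched here for the metal response element. It is the RefSeq sequence of the assembly GRCr8, chr19:10832926-10833225, minus strand, from 250 bases before to 50 after the gene's start. Capitals mark the 7 matches to TGCNCNC on either strand, a motif that 49.6% of all 33469 rat promoters in the table hold at least once. Whether each match is a working element was not tested.

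Mt1: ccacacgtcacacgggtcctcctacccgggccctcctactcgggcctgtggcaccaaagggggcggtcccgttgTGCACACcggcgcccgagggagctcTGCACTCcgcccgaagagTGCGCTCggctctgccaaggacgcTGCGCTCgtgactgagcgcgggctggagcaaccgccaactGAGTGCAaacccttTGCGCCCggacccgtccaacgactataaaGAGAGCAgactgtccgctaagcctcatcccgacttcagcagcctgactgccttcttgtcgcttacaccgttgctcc

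Among Nrf2 targets and glutathione genes, 8 of 22 tested genes rose and none fell, against 8.67% and 10.5% of all probes, and the median difference was 0.39. They were genes of thiol repair, quinone reduction, conjugation and export. Srxn1, sulfiredoxin, which repairs over-oxidised peroxiredoxins, read 12.4, 10.6 and 14.8 in mercury rats and 0.796, 0.86 and 1.59 in sham rats. It rose 12.2-fold (3.60 ± 0.27, adjusted p 4.75e-04). Txnrd1, the cytosolic selenoenzyme thioredoxin reductase, rose 3.19-fold, from 0.317 to 0.356 in sham rats to 1.03 to 1.14 in mercury rats (1.67 ± 0.09, adjusted p 2.27e-04). Nqo1, a quinone reductase, stood at 5.12, 2.66 and 7.48 against 1.28, 1.45 and 1.41 (3.4-fold, adjusted p 0.0116). Ephx1, microsomal epoxide hydrolase, was among the brightest genes to rise, at 54.6, 60.4 and 113 against 17, 19.9 and 25.6 (3.5-fold, adjusted p 0.00598), and its other probe gave 3.07-fold. Among the remaining called members, named after their values were seen, Ugdh, which makes UDP-glucuronate, rose 3.37-fold and the aldehyde reductase Akr7a3 rose 1.39-fold.

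Glutathione synthesis itself moved less. Gclm, the modifier subunit of glutamate-cysteine ligase, read 94.1, 84.8 and 105 in mercury rats and 64.9, 68.1 and 82 in sham rats by its brighter probe. The difference of 0.41 ± 0.13 was not called (adjusted p 0.0664) but was with the replicate number as a block (0.0321), and the dimmer probe was called at 0.68 ± 0.11 (adjusted p 0.00603). Gclc, the catalytic subunit, stood at 106 to 127 in mercury rats and 114 to 134 in sham rats (-0.09 ± 0.11, adjusted p 0.621), and those ranges overlapped. Nfe2l2, the gene of Nrf2 itself, differed by 0.12 ± 0.12 (adjusted p 0.531).

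Export and conjugation genes were among the largest rises. Abcc2 encodes MRP2, the apical pump that exports glutathione, glucuronide and mercury-thiol conjugates into urine and bile. It read 1.99, 1.72 and 3.77 in mercury rats and 0.214, 0.185 and 0.258 in sham rats, so that it stood below the array median in every sham rat and above it in every mercury rat. The difference was 3.44 ± 0.29, or 10.8-fold (adjusted p 6.37e-04). Akr1b8, an aldo-keto reductase, read 35.4, 35.5 and 62.9 against 0.84, 0.882 and 6.07 (4.70 ± 0.73, adjusted p 0.00562). Ugt2b7, a UDP-glucuronosyltransferase, read 13.3, 11.4 and 22.3 against 0.219, 0.781 and 0.51 (5.08 ± 0.46, 33.8-fold, adjusted p 7.31e-04). Sham rat 3 was the highest sham rat for Akr1b8 and Srxn1, and the sham rats differed among themselves more than the mercury rats for Ugt2b7. The Ugt2b family is near-identical in sequence, and which member the probe reads was not tested. The Abcc2 promoter follows, as the member of this list with the largest change that also holds the antioxidant response element TGACNNNGC (GRCr8, RefSeq, chr1:252613625-252613924, plus strand, the same window). Capitals mark the 1 match, which lies after the gene's start. The motif was searched on both strands and is in 12.1% of all promoters, in 10 of 20 tested list members with a promoter in the table and in 4 of the 7 that rose.

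Abcc2: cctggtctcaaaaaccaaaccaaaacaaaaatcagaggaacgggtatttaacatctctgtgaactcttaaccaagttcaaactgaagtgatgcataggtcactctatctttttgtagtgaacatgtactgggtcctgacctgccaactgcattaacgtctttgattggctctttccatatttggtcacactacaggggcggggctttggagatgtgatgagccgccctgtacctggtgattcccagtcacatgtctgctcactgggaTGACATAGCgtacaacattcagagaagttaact

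Genes that move mercury and its thiol conjugates changed in both directions. Of 15 tested members of that list 2 rose, Abcc2 and Slc7a5 (13.3%, against 8.67% of all probes), and 4 fell (26.7%, against 10.5%), with a median of -0.11. The count higher was 5 without mercury rat 3 and 4 in the fit of all groups together, with quantile normalization and with a floor of 0.25. Slc22a6, the basolateral organic anion transporter OAT1, which takes up mercury-cysteine conjugates from blood, read 5.72, 5.88 and 4.89 against 10.7, 9.69 and 11 (-0.93 ± 0.11, adjusted p 0.00186). Slc7a9, a subunit of the apical cystine transporter, fell by 0.87 ± 0.13 (adjusted p 0.0046), and its partner Slc3a1 differed by -0.11 ± 0.11 (adjusted p 0.538). Slc25a10, the mitochondrial dicarboxylate carrier that also moves glutathione, fell by 0.95 ± 0.10 (adjusted p 0.00124). Slc7a5, a large neutral amino acid transporter that carries the methionine-like methylmercury-cysteine, rose 1.96-fold at a low level, from 0.184 to 0.226 in sham rats to 0.346 to 0.462 in mercury rats (adjusted p 0.00398). Ggt1, the brush border enzyme that opens glutathione conjugates, was not called (-0.48 ± 0.16, adjusted p 0.0754), but was with the replicate block (0.0279). Slc22a8, OAT3, was missing on all 6 arrays.

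The list of heat shock proteins and co-chaperones, mainly cytosolic but with the mitochondrial Hspd1 and Hspe1, rose nearly as a whole. Of 12 tested members 11 were called higher and none lower, with a median difference of 0.90, against 8.67% of all probes called higher. The count higher was 8 in the fit of all groups together. Hspa1a, the inducible Hsp70, read 119, 101 and 44.9 in mercury rats and 2.16, 2.35 and 2.32 in sham rats. Mercury rat 3 was the lowest of its group and still far above each sham rat, and the rise was 35.8-fold (5.16 ± 0.33, adjusted p 2.69e-04). Hspa1a has a near-identical neighbour, Hspa1b, and the probe may read both. Chordc1, a co-chaperone of Hsp90, rose 3.73-fold (1.90 ± 0.15, adjusted p 6.00e-04). Stip1, which joins Hsp70 to Hsp90, rose 3.16-fold (1.66 ± 0.14, adjusted p 6.63e-04). Hspb8, a small heat shock protein, rose 2.82-fold (1.49 ± 0.09, adjusted p 2.41e-04).

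The abundant constitutive chaperones moved by less. Named after their values were seen, Hspa8, the constitutive Hsc70, went from 58 to 64.3 in sham rats to 103 to 111 in mercury rats (1.74-fold). The mitochondrial chaperonin Hspd1 read 36.4, 38.5 and 38.3 against 22.2, 23.3 and 24.5 (1.62-fold, adjusted p 0.00262), and its partner Hspe1 read 126, 120 and 114 against 75.2, 75.7 and 79.5 (1.56-fold, adjusted p 0.00354). The member that was not called was Hsf1, the factor that drives these genes, with a difference of 0.17. Hspd1 and Hspe1 are divergent neighbours, and their promoter windows overlap. The Hspd1 promoter is shown because both genes share it and it holds the heat shock element, GAA and TTC units in turn with NN between them, 3 units in all, starting with GAA (GRCr8, RefSeq, chr9:64083988-64084287, minus strand). Capitals mark 2 overlapping matches, searched on both strands. This element is in 0.798% of all promoters and in 4 of the 9 members that rose and have a promoter in the table, Hspa8, Hspd1, Hspe1 and Chordc1. As the windows of Hspd1 and Hspe1 overlap, the same element may be counted for both.

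Hspd1: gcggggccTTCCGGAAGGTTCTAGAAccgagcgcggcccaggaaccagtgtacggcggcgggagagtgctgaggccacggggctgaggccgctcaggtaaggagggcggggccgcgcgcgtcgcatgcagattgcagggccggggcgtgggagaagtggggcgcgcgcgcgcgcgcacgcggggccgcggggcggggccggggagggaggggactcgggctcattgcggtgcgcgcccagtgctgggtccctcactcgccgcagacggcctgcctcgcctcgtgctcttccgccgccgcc

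Genes of the integrated stress response, which ATF4 drives when translation is held back, rose in many members. Of 17 tested 9 rose (52.9%, against 8.67% of all probes) and 1 fell (5.88%, against 10.5%), with a median of 0.71. Chac1, which degrades glutathione, read 7.65, 8.86 and 6.45 in mercury rats and 0.24, 0.224 and 0.203 in sham rats. The values within each group were close, and the rise was 34.2-fold (5.10 ± 0.14, adjusted p 9.46e-06). Atf3, a stress-induced repressor of this family, stood at 17.2, 18.8 and 12.1 against 1.96, 1.76 and 1.77 by its brighter probe (8.63-fold, adjusted p 2.27e-04) and 32.6-fold higher by the other probe. Mthfd2, a mitochondrial folate enzyme, rose 5.1-fold from levels of 0.136 to 0.191 (adjusted p 3.43e-04). Ppp1r15a, GADD34, which restores translation, rose 3.57-fold (adjusted p 0.0013). The other called members, named after their values were seen, included the aminoacyl-tRNA synthetases Sars1 (3.32-fold), Gars1 (1.97-fold) and Wars1 (1.89-fold).

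The response was not shared by each gene of amino acid synthesis. Psph, the last enzyme of serine synthesis, fell by 0.67 ± 0.18 (adjusted p 0.0372). Its call was lost without mercury rat 1 (0.0638), sham rat 1 (0.0781), sham rat 2 (0.1) or sham rat 3 (0.112). Asns, asparagine synthetase, gave different answers by probe. The brighter probe read 3.76, 3.59 and 3.37 against 3.93, 3.77 and 3.5 (-0.06 ± 0.09, adjusted p 0.689), while the dimmer probe read 1.38, 1.75 and 1.31 against 0.427, 0.343 and 0.505 (1.81 ± 0.17, adjusted p 8.98e-04), so that the direction of Asns is uncertain. Slc7a1, a cationic amino acid transporter, read 1.71, 2.08 and 1.06 in mercury rats and 0.811, 28.6 and 0.648 in sham rats. It was not called (-0.67 ± 1.32, adjusted p 0.767). Each mercury rat lay above the sham rats other than sham rat 2, so that the direction of Slc7a1 is uncertain too. Ddit3 and Slc7a11 were not on the array. The Chac1 promoter is shown with that of G6pc1, the gene with the largest fall, because both hold the 8-base C/EBP-ATF element TGATGCAA (capitals, searched on both strands) although their levels moved in opposite directions. The element is in 0.795% of all promoters and in 2 of 15 tested members of the list with a promoter in the table, of which Chac1 rose and Nupr1 did not (-0.09 ± 0.29, adjusted p 0.866). The windows are chr3:126795881-126796180 for Chac1 and chr10:86807409-86807708 for G6pc1, both plus strand (GRCr8, RefSeq).

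Chac1: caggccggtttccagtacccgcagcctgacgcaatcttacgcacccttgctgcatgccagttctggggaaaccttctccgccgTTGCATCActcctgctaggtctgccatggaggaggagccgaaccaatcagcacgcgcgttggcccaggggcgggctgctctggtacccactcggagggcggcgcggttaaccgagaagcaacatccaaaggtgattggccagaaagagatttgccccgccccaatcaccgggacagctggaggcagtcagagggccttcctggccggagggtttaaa
G6pc1: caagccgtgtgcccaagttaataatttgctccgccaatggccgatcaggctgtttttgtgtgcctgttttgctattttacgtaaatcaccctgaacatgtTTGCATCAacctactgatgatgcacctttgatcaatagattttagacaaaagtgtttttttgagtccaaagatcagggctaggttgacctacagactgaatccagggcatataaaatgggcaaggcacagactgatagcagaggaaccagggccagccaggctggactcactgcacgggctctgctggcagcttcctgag

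Some chaperones of the endoplasmic reticulum and proteasome genes rose by small amounts. Of 14 tested chaperones of the endoplasmic reticulum 4 rose (28.6%, against 8.67% of all probes) and none fell, with a median of 0.09. Hspa5, BiP, the main chaperone of that compartment, read 31.5, 34.7 and 33.4 against 22.6, 23.7 and 22.1 (1.46-fold, adjusted p 0.0069). Dnajb9 rose 1.68-fold (adjusted p 0.0173), a call lost when any rat other than mercury rat 3 or sham rat 2 was left out (0.0552 to 0.062). Of 19 tested proteasome and ubiquitin genes 7 rose (36.8%) and none fell, and 18 of the 19 differences were above 0 (median 0.28, against 46.6% of all probes above 0). Psmb3, a subunit of the catalytic core, rose 1.61-fold (adjusted p 0.00603), and Psmd12, of the regulatory cap, rose 1.54-fold (adjusted p 0.00833). Psmc2, an ATPase of the cap, rose 1.4-fold (adjusted p 0.032), a call lost with the replicate block (0.0544) and without any rat other than mercury rat 2 (0.0513 to 0.108). Without sham rat 1 the proteasome count of 7 was 2, and without sham rat 2 it was 4. The count of 4 chaperones was 2 without mercury rat 2 or sham rat 1 and 1 without sham rat 3.

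Many immediate early genes, induced within minutes of growth or stress signals, rose after mercury. Of 19 tested members 10 rose (52.6%, against 8.67% of all probes; 6 in the fit of all groups together) and 1 fell (Klf10), with a median of 0.85. Egr1, a zinc finger factor, read 1.88, 2.17 and 1.39 in mercury rats and 0.265, 0.143 and 0.231 in sham rats (8.67-fold, 3.12 ± 0.25, adjusted p 6.27e-04). Klf6 read 5.61, 9.44 and 4.5 against 1.5, 1.81 and 1.33 (4.05-fold, adjusted p 0.00306). Fosl1, a partner of Jun in AP-1, rose 3.78-fold by its brighter probe and 11.4-fold by the other. Myc, a driver of growth, rose 3.39-fold but stayed under the array median (0.484 to 0.735 against 0.153 to 0.215, adjusted p 0.00136).

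Fos was called with 2 of its 3 probes. The brightest read 2.37, 2.87 and 4 against 1.09, 0.764 and 1.7, a difference of 1.42 ± 0.31 (adjusted p 0.0183). The call was lost without sham rat 1 (0.0598) and in the fit of all groups together (0.264), with 0.00884 to 0.264 over the alternatives. The others gave 1.18 ± 0.22 (adjusted p 0.0117) and 0.56 ± 0.17 (adjusted p 0.0568). Jun differed by 0.27 ± 0.13 and was not called (adjusted p 0.188).

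Of 16 tested markers of tubular injury and dedifferentiation 5 rose (31.2%, against 8.67% of all probes) and none fell (median 0.39), with 9 higher without mercury rat 3 and 3 without sham rat 1. Clu, clusterin, a secreted chaperone, read 5.64, 6.03 and 7.05 in mercury rats and 1.71, 1.1 and 1.44 in sham rats (4.46-fold, adjusted p 6.07e-04). Tnfrsf12a, the receptor of the cytokine TWEAK, read 19.7, 21.1 and 14.1 against 3.03, 3.24 and 3.06 (5.8-fold, adjusted p 2.41e-04). The groups of both genes were far apart. Lcn2, NGAL, a urinary injury marker, read 1.3, 1.22 and 0.83 against 0.596, 0.61 and 0.618 (1.8-fold, adjusted p 0.014), a call lost without sham rat 1 (0.0515). Havcr1, KIM-1, which marks injured proximal tubule cells, read 1.08, 1.55 and 1.86 against 1.03, 0.794 and 0.777. Mercury rat 1 lay just above the highest sham rat, and the difference of 0.76 ± 0.21 was at the threshold (adjusted p 0.0443). It was not called with the replicate block (0.0791), in the fit of all groups together (0.259), or when any rat other than mercury rat 1 was left out (0.0568 to 0.133). Spp1, osteopontin, overlapped between the groups, at 19.9 to 30.2 and 13.7 to 22 (adjusted p 0.132). Plaur, the urokinase receptor, had no value in sham rat 3 by its brighter probe. Over the 5 rats measured it was not called (0.62 ± 0.29, adjusted p 0.189). It was with the block (0.0251), in which mercury rat 3 then has no partner. Its other probe, near the floor, went the other way and was not called (-0.27 ± 0.16, adjusted p 0.282).

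The list of p53 targets and apoptosis had 16 tested genes, of which 4 rose (25%, against 8.67% of all probes) and 1 fell (6.25%, against 10.5%), with a median of 0.10. Without mercury rat 3 the list had 5 higher and 3 lower. The count of 4 was 1 without mercury rat 1 or sham rat 1, and 2 without mercury rat 2 or sham rat 3. Bax, the pro-apoptotic pore protein, rose 2.03-fold, from 2.26 to 2.41 in sham rats to 4.11 to 5.13 in mercury rats (adjusted p 0.00141), and 2.17-fold by its other probe. Ccng1, cyclin G1, a classic p53 target, rose 2.08-fold by its brighter probe (adjusted p 0.0173), a call lost without mercury rat 1 (0.0514), sham rat 1 (0.0621) or sham rat 3 (0.052), and 1.56-fold by its other probe (adjusted p 0.00329). Cdkn1a, p21, read 7.72, 7.14 and 3.18 in mercury rats and 3.56, 2.75 and 2.22 in sham rats. Mercury rat 3 lay within the sham range, and the difference of 1.00 ± 0.34 was not called (adjusted p 0.0826) except with the replicate block (0.0197) and without mercury rat 3 (0.00588). Mdm2 was not on the array.

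Few inflammatory genes were called. Of 23 tested cytokines, chemokines and adhesion molecules 4 rose and none fell (17.4% called higher, against 8.67% of all probes), with a median of 0.14. The count of 4 was 2 without mercury rat 1, mercury rat 2, sham rat 2 or sham rat 3, and 1 in the fit of all groups together. Il1b, interleukin-1β, rose 2.24-fold at a low level, from 0.172 to 0.197 to 0.356 to 0.478 (1.16 ± 0.13, adjusted p 0.00153). Ccl4, a chemokine for monocytes, was 2.27-fold higher than in sham rats (adjusted p 0.00952), a call lost in the fit of all groups together (0.176). Untreated normal rats 11 and 12 were in neither group but entered the fit of all groups together. They read 0.489 and 0.451 for Ccl4. That is near the mercury mean of 0.53 and above the sham mean of 0.233. For Il1b they read 0.237 and 0.226, nearer the sham mean of 0.185 than the mercury mean of 0.415. Il6, Ccl2, Cxcl1 and Icam1 were not called. Cxcl1, a neutrophil chemokine, read 0.535, 1.79 and 0.367 against 0.318, 0.191 and 0.351, with mercury rat 2 above the others (1.35 ± 0.55, adjusted p 0.132). Of 19 tested leukocyte genes 2 rose and none fell (10.5%, near the 8.67% of all probes called higher). Their median was 0.24, and 17 of the 19 differences lay above 0, where 46.6% of all probes did. None was called higher without sham rat 2 or sham rat 3, and 1 was without mercury rat 1, mercury rat 2 or sham rat 1. Tyrobp, an adaptor of myeloid receptors, rose 1.59-fold (adjusted p 0.0145), a call lost without sham rat 2 (0.053) or sham rat 3 (0.0557). S100a9, a neutrophil protein, read 2.97, 4 and 1.57 against 1.25, 1.19 and 1.38 (adjusted p 0.0498), and its call was lost with the block (0.0606), in the fit of all groups together (0.129) and when any rat other than mercury rat 3 was left out (0.103 to 0.131). Ptprc, CD45, carried by all leukocytes, read 0.56 to 0.751 in mercury rats and 0.515 to 0.691 in sham rats (adjusted p 0.456), and these ranges overlapped.

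Some transporters of the proximal tubule fell. Of 26 tested transporters and brush border genes 8 fell (30.8%, against 10.5% of all probes), none rose and 18 were not called, with a median of -0.37. In the fit of all groups together 2 rose, and without mercury rat 1 or mercury rat 3 1 rose. Slc22a5, the carnitine transporter OCTN2, read 1.62, 2.46 and 1.9 in mercury rats and 5.56, 5.99 and 6.12 in sham rats. It fell by 1.58 ± 0.16, or 3-fold (adjusted p 0.00101). Slc13a2, the apical citrate transporter, fell 2.45-fold (adjusted p 8.62e-04) by its brighter and 2.18-fold by its other probe. Slc7a7, a basolateral amino acid transporter, fell 2.33-fold (adjusted p 0.00114). Aqp1, the water channel of this segment, named after its values were seen, fell from 24 to 26.6 in sham rats to 13.9 to 15.9 in mercury rats (1.71-fold, adjusted p 0.00237).

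The bright endocytic receptor Lrp2, megalin, differed by less. It read 27, 28.8 and 37.5 against 38.6, 40.6 and 40.2, with mercury rat 3 near the sham rats (-0.37 ± 0.13, adjusted p 0.0987). Its co-receptor Cubn differed by -0.31 ± 0.11 (adjusted p 0.0957). Slc34a1 and Slc5a2, the main phosphate and glucose transporters of this segment, were not on the array.

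Of 25 tested genes of proximal tubule metabolism 15 fell and 1 rose (60% and 4%, against 10.5% and 8.67% of all probes; median -0.55), with 9 lower without mercury rat 1, mercury rat 2 or sham rat 3 and 8 without sham rat 1. Gluconeogenesis, which the kidney shares with the liver, held the largest fall. G6pc1, the glucose-6-phosphatase that releases free glucose, read 1.78, 2.53 and 2.99 in mercury rats and 17.3, 27.6 and 16.6 in sham rats. The groups stood far apart, and the fall was 3.07 ± 0.25, or 8.39-fold (adjusted p 6.27e-04). Pck1, which makes phosphoenolpyruvate for the same path, read 15.4, 22.1 and 57.6 against 101, 90.8 and 101. Mercury rat 3 was the least reduced, and the fall of 1.86 ± 0.43 (adjusted p 0.0237) was not called when any rat other than mercury rat 3 was left out (0.051 to 0.073). Fbp1, fructose-bisphosphatase, named after its values were seen, fell 1.53-fold (adjusted p 0.0119).

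Gatm, the first enzyme of creatine synthesis, read 21.3, 24.1 and 25.1 against 61.9, 53.5 and 53.9 by its brighter probe (-1.27 ± 0.11, adjusted p 6.37e-04). Its other probe lay near the floor, at 0.124 to 0.184, and was not called (-0.20 ± 0.15). Cyp27b1, which activates vitamin D, fell by 0.76 ± 0.14 (adjusted p 0.0122). Gldc, the glycine decarboxylase of mitochondria, in the 15 largest falls but in no list, read 1.6, 1.63 and 2.08 against 6.6, 5.85 and 6.52 (3.6-fold, adjusted p 3.43e-04).

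Of 23 tested genes of fatty acid oxidation and the peroxisome 15 fell and none rose (65.2%, against 10.5% of all probes; median -0.50). Pex11a, which drives division of peroxisomes, read 0.643, 0.844 and 0.951 in mercury rats and 3.86, 4.93 and 3.12 in sham rats (4.86-fold, adjusted p 7.10e-04), and its other probe gave 4.84-fold. Ehhadh, the peroxisomal bifunctional enzyme, fell 2.22-fold (adjusted p 0.00225). Slc25a20, which carries acylcarnitines into mitochondria, fell 1.63-fold (adjusted p 0.00355). Ppara, the nuclear receptor that drives these genes, named after its values were seen, fell 1.59-fold at a low level (0.177 to 0.197 against 0.266 to 0.34, adjusted p 0.00833). Pdk4, which turns off pyruvate oxidation, fell by 1.39 ± 0.33 (adjusted p 0.027), a call lost without mercury rat 1 (0.0688), sham rat 1 (0.0559), sham rat 2 (0.0752) or sham rat 3 (0.0861) and in the fit of all groups together (0.0573). The count of 15 was 8 without mercury rat 1, 9 without sham rat 1 and 6 without sham rat 3.

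Few nuclear-encoded subunits of the respiratory chain and ATP synthase were called. Of 21 tested, 2 fell (9.52%, near the 10.5% of all probes), with 4 without mercury rat 3 and 0 without any other rat. All 21 differences lay below 0, where 53.4% of all probes did, with a median of -0.20. Among them Atp5pb read 32.5, 30.8 and 33.7 against 40.2, 38.3 and 45.2 (-0.35 ± 0.10, adjusted p 0.0486), and its call and that of Atp5mc1 (-0.30 ± 0.08, adjusted p 0.0447) held in 6 of 15 alternatives each. Of 20 glycolysis and hypoxia genes 2 rose and 1 fell (10% and 5%, near or under the shares of all probes), with 3 lower with the replicate block (median -0.05). Adm, adrenomedullin, a vasodilator peptide, rose 2.63-fold (adjusted p 0.00193). Slc2a1, the glucose transporter GLUT1, rose 1.51-fold (adjusted p 0.0176), a call lost without mercury rat 1 (0.0603), sham rat 1 (0.0651) or sham rat 2 (0.0635) and in the fit of all groups together (0.0648).

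**Figure D3:**
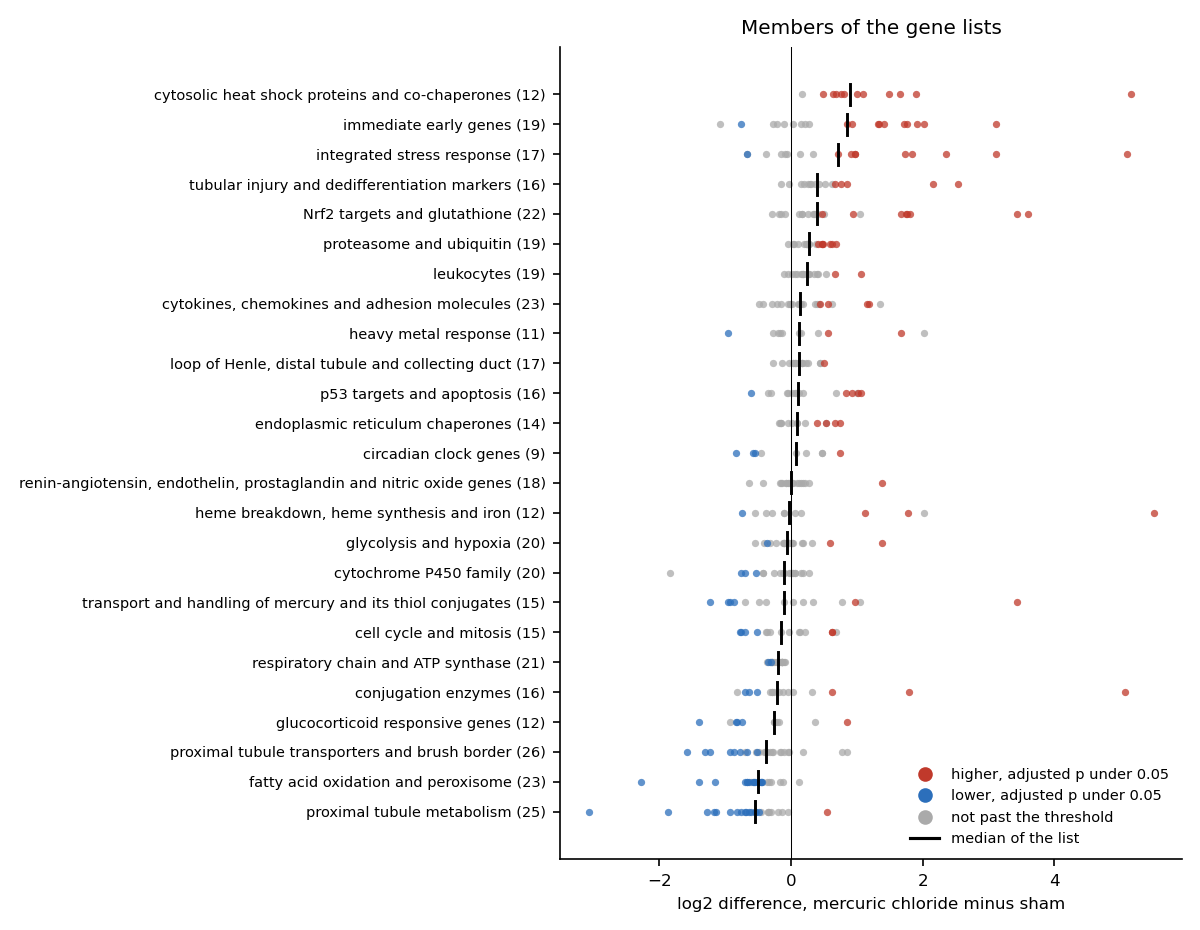
Log2 difference, mercury minus sham, of each tested member (points) and the median (bar) for each gene list; coloured points passed an adjusted p of 0.05. The list of cytosolic heat shock proteins, which also holds the mitochondrial Hspd1 and Hspe1, lies above 0 with a median of 0.90. Fatty acid oxidation and proximal tubule metabolism have medians below 0, at -0.50 and -0.55.

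Few genes of later nephron segments were called, at a share under the 19.1% of all probes called in either direction. Among 17 tested genes of the distal nephron, from the loop of Henle to the collecting duct, 1 rose (5.88%, against 8.67% of all probes called higher) and none fell (against 10.5% called lower), with a median of 0.12. The count higher was 3 with quantile normalization, 2 without mercury rat 3 and with the replicate block, and 0 without mercury rat 1, sham rat 1 or sham rat 2. Umod, uromodulin, of the thick ascending limb, read 34.3, 34.4 and 25.5 against 27.2, 23.7 and 27 (0.26 ± 0.14, adjusted p 0.239, 95% interval -0.07 to 0.59). Egf, of the distal tubule, gave -0.27 ± 0.13 (adjusted p 0.208, interval -0.58 to 0.05). Slc12a3, the thiazide-sensitive sodium chloride transporter, gave 0.07 ± 0.11 and Aqp2, the water channel of the collecting duct, 0.17 ± 0.12. Calb1, the calcium-binding protein of the distal tubule, rose 1.43-fold (adjusted p 0.0437), and that call held in 6 of 15 alternatives and in 1 of the 6 fits without a rat, with adjusted p up to 0.188. Whether the mercury rats differ between proximal and later segments was not tested.

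Among genes that respond to glucocorticoids, 4 of 12 tested fell (33.3%, against 10.5% of all probes) and 1, Lcn2, rose (8.33%, against 8.67%), with a median of -0.25, with 1 lower without sham rat 2 or sham rat 3 and in the fit of all groups together. Per1, of the circadian clock, read 0.953, 1.23 and 1.02 against 2.17, 1.53 and 2.06 (-0.84 ± 0.16, adjusted p 0.0129), a call lost without sham rat 1 (0.05) or sham rat 3 (0.0501) and in the fit of all groups together (0.0932). Klf9, a glucocorticoid-induced factor, fell by 0.81 ± 0.17 (adjusted p 0.0155), a call lost without sham rat 2 (0.0562). Fkbp5, a co-chaperone of the glucocorticoid receptor, read 1.3, 1.97 and 0.749 against 2.38, 3.24 and 1.67. The groups overlapped and it was not called (-0.92 ± 0.37, adjusted p 0.129), but was with the replicate block (0.0086). Among the genes that fell, Per1 stood at 0.569 and 0.673 in untreated normal rats 11 and 12. These levels lay below the mercury mean of 1.06 and the sham mean of 1.9. Klf9 (0.818 and 0.912) and Pdk4 (0.206 and 0.192) also lay below both means there. Glul, at 48.2 and 43.1, lay nearer the sham mean of 52.1 than the mercury mean of 31.2. Of 9 clock genes 3 fell (33.3%, against 10.5% of all probes) and 1, Bhlhe41, rose (11.1%, against 8.67%). The median was 0.08, with 5 differences above 0 and 4 below. The call of Bhlhe41 was lost without mercury rat 1 (0.0842), mercury rat 2 (0.0757), sham rat 2 (0.0677) or sham rat 3 (0.0727). The count lower was 1 without mercury rat 2, sham rat 1 or sham rat 2. None was lower without sham rat 3 or in the fit of all groups together. In the normal rats Bhlhe40, which fell, stood at 0.844 and 0.891, below the mercury mean of 1.28. Bhlhe41 stood at 0.535 and 0.683 there, below the sham mean of 0.734.

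Of 15 tested cell cycle genes 2 rose (13.3%, against 8.67% of all probes) and 4 fell (26.7%, against 10.5%; 2 in the fit of all groups together), with a median of -0.15. Cdk1, the mitotic kinase, fell 1.71-fold, from 1.42 to 1.63 in sham rats to 0.849 to 0.974 in mercury rats (adjusted p 0.00292), and 1.66-fold by its other probe. Ccna2, cyclin A, fell 1.63-fold (adjusted p 0.0166), a call lost in the fit of all groups together (0.0838). Ccne1, cyclin E1 of the G1 to S step, rose 1.55-fold at a low level (0.324 to 0.335 against 0.204 to 0.219, adjusted p 0.00324), a call lost in the same fit (0.114).

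Conjugation enzymes moved both ways, with 3 of 16 higher and 3 lower (18.8% each, against 8.67% and 10.5% of all probes; median -0.22). None was called lower without mercury rat 1, mercury rat 2, sham rat 1 or sham rat 3, and 5 were without mercury rat 3. Besides Ugt2b7, Gstm1, a glutathione S-transferase, read 16.4, 13.5 and 29.8 against 6.71, 9.09 and 2.62 (3.46-fold, adjusted p 0.0396). Its call was lost with the replicate block (0.0799), in the fit of all groups together (0.118) and without any rat other than sham rat 2 (0.0558 to 0.0829), and Gstm genes are close enough in sequence for a probe to read several. Gstm5 fell by 0.52 ± 0.13 (adjusted p 0.0321), a call also lost with the block (0.0509), without mercury rat 1 (0.0988), mercury rat 2 (0.0711), sham rat 1 (0.102) or sham rat 3 (0.0957). Ugt1a6, another glucuronosyltransferase, differed by 0.03 ± 0.19. Of 20 cytochrome P450 genes none rose and 3 fell (15%, against 10.5% of all probes), 5 with the replicate block (median -0.10), among them Cyp2e1 (-0.70 ± 0.17, adjusted p 0.027), whose call was lost without mercury rat 1 (0.0802), mercury rat 2 (0.0737) or sham rat 1 (0.0657) and in the fit of all groups together (0.0847). Nr1i2, the pregnane X receptor that drives drug-metabolising enzymes, was among the 15 largest falls, at 0.179, 0.153 and 0.228 against 0.629, 0.543 and 0.548 (3.11-fold, adjusted p 8.98e-04).

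Several of the largest changes lie outside these lists. Chd7, a chromatin remodelling enzyme, rose 5.43-fold at a low level (0.671 to 0.928 against 0.112 to 0.161, adjusted p 4.72e-04), and Nefm, a neurofilament subunit, rose 3.79-fold (adjusted p 0.00135). Zfp354a, a zinc finger protein of kidney also known as Kid-1, read 1.68, 2.13 and 2.82 against 10.4, 10.6 and 9.14 (4.65-fold lower, adjusted p 6.37e-04). Nme4, a mitochondrial nucleoside diphosphate kinase, fell 4.17-fold (adjusted p 5.36e-04), as did Slc16a6, a monocarboxylate carrier (adjusted p 6.37e-04). Dgkg, diacylglycerol kinase gamma, fell 3.78-fold and 4.11-fold by its 2 probes. Cldn3, a tight junction claudin, fell 3.39-fold (adjusted p 0.0013). Cwc27, a cyclophilin of the spliceosome, was tight within both groups, at 1.81, 1.67 and 1.7 against 5.67, 5.51 and 6.26 (3.36-fold, adjusted p 2.27e-04). Slc25a25, a calcium-regulated ATP carrier of mitochondria, read 1.08, 1.33 and 1.88 against 5.59, 3 and 5.56 (3.26-fold, adjusted p 0.00807).

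Markers of other cells and tissues were few on the array, and with 19.1% of all probes called their counts say little about them. None of 6 tested glomerulus markers was called, nor any of 6 of adrenal gland and fat, 3 of lymph node and spleen or 5 of skeletal muscle. Podxl, podocalyxin, was called in 1 of 15 alternatives, the replicate block (0.44 ± 0.17, adjusted p 0.111; 0.0418 with the block). Alb, albumin, lay at the floor on all 6 arrays, and of 5 tested liver markers Apoc3 fell (-0.75 ± 0.11, adjusted p 0.00559). Of 9 endothelial markers Vwf, von Willebrand factor, fell 2.4-fold, from 2.37 to 3.54 to 1.07 to 1.26 (adjusted p 0.00262), and Tek rose 1.37-fold (adjusted p 0.0412; 0.0519 with the block; 0.094 to 0.124 without any rat other than mercury rat 3; its other probe was not called), while Pecam1 differed by 0.11 ± 0.13. Of 9 fibroblast and smooth muscle markers Tagln, transgelin, fell 2.05-fold (adjusted p 0.00417) and Eln, elastin, 1.51-fold (adjusted p 0.0296), a call lost without mercury rat 2 (0.0758), sham rat 1 (0.101) or sham rat 2 (0.095) and in the fit of all groups together (0.0698). Normal rats 11 and 12 read 4.08 and 4.12 for Tagln, nearer the mercury mean of 3.5 than the sham mean of 7.17. Alas2, the red cell form of the first heme enzyme, rose 3.02-fold, at 0.907, 1 and 1.31 against 0.321, 0.356 and 0.379 (adjusted p 8.83e-04), while the other red cell marker on the array, Slc4a1, differed by 0.17. The mean log2 level of the 2 red cell markers was -0.15 to 0.02 in mercury rats and -1.07 to -0.84 in sham rats, and the part of blood content in the differences was not tested.

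The 3 mercury rats were not alike in each program. This pattern was noticed after the values were seen and is a description with no test. In the Nrf2 list the median log2 level above the sham mean was 0.37, 0.30 and 0.69 in mercury rats 1, 2 and 3, and rat 3 was the highest mercury rat for 8 of the 8 genes that rose. In the integrated stress response the medians were 0.84, 0.88 and 0.36, and rat 3 was the lowest for 8 of 9. Among heat shock genes rat 3 was the lowest for 7 of 11 (medians 1.04, 0.88 and 0.87). In proximal tubule metabolism the medians were -0.65, -0.61 and -0.43, and rat 3 was the least reduced for 12 of 15. Over all 136 probes at least 2-fold higher, the medians were 1.38, 1.36 and 1.35. Over all 143 probes at least 2-fold lower they were -1.35, -1.30 and -1.15. By this median rat 3 was the least reduced there too, and not in proximal tubule metabolism alone. By gene the lists that fell differed. In fatty acid oxidation and the peroxisome rat 3 was the least reduced for 7 of 15 and the most reduced for 3. Among proximal tubule transporters it was the least reduced for 2 of 8 and the most reduced for 4 (medians -0.41, -0.39 and -0.22). No such count is given here over all called probes.

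**Figure D4:**
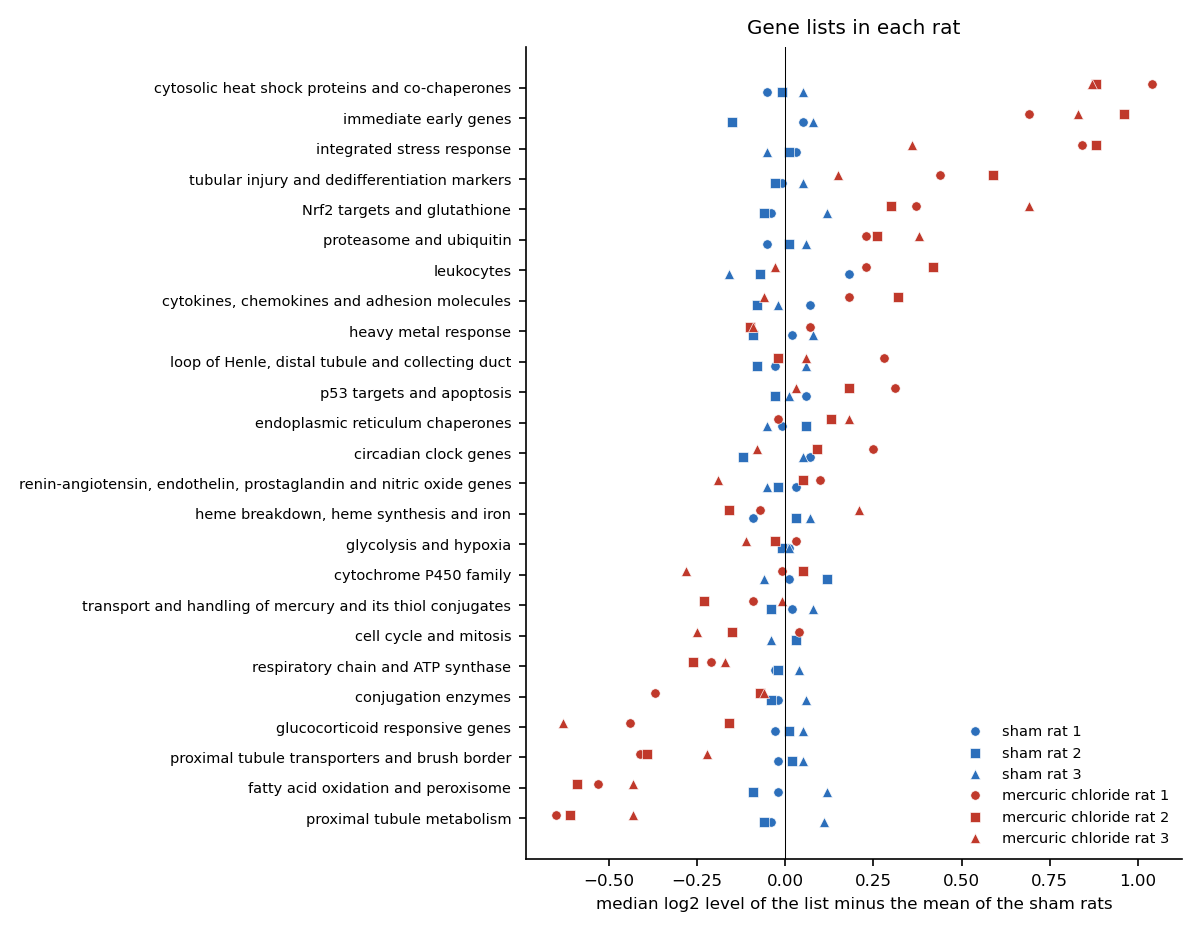
Median log2 level of the tested members of each list minus the sham mean of the gene, with 1 point per rat (3 mercury and 3 sham). Mercury rat 3 lies above the other mercury rats for Nrf2 targets (0.69 against 0.37 and 0.30) and below them for the integrated stress response (0.36 against 0.84 and 0.88).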

How the data were processed

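Kidney RNA was labelled with biotin and hybridised to CodeLink arrays, per the labels' protocols. Scanning, background correction and scaling by the authors are not stated in the sources used. The deposited values are in another unit than intensity or log2: their log2 gave whole multiples of 0.0001 within 1e-06 for 100.0% of 343118 values, so the log2 of a deposited value was read as the linear intensity, with 0.5 as a missing value. Sham rat 3 was moved by 2 lines. Intensities were divided by the array median, floored at 0.1 and brought to log2. Probes measured in at least 2 rats of each group and above the floor in at least 3 of 6 were tested (9040) with limma 3.58.1 in R 4.3.3 (lmFit and eBayes, 4 residual degrees of freedom). The log2 reading was added to the planned design once the values were seen.

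Of 9911 probes 7229 had 1 symbol, 21 several and 2661 none. A gene is represented by its brightest probe. Named genes were the 15 largest rises and falls among called genes with 1 symbol, no overlap and a brighter group of at least 0.5 of the array median, a set of key genes, and up to 4 called members per direction of each list. The members and lists were chosen with earlier results of these data known. Same-numbered rats of the groups deviated together (correlations 0.158, 0.248 and 0.204, the other pairs -0.24 to -0.01), which comes from the data and not from the labels. Deviations from a group's own mean cancel out within the group, so the other pairs are no independent contrast. The replicate block is given where it changes a call. It was chosen from the same data, so a call gained with it is no independent result. The alternatives were all groups in one fit, quantile normalization, other floors and filters, missing values set at the floor, the deposited order, the block, a trended robust prior and leaving out each rat. A few list members are counted but are not reported here by name.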

Additional observations from a re-analysis of the deposited data

How the results depend on the processing

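Of 111 named genes that were called, 67 were called in all 15 alternatives other than the deposited order of sham rat 3 that gave a value for them, 44 lost the call in at least 1, and all 111 kept their sign in those 15; of 18 that were not called, 9 were called in at least 1. With all groups in one fit 1134 probes were called, 521 higher and 613 lower. With the replicate block 1997 were called, 873 higher and 1124 lower, and 1611 of the 1729 were among them. Besides the calls given with their blocked values (Havcr1, S100a9, Psmc2, Gstm1, Gstm5 and Tek lost; Gclm, Plaur, Cdkn1a, Ggt1, Fkbp5 and Podxl gained), the block changed no call of a named gene. Without 1 rat the calls numbered 908 to 2292, 429 to 1012 higher and 479 to 1280 lower, and the at least 2-fold calls 256 to 328, 123 to 160 higher and 133 to 168 lower. With sham rat 3 in its deposited order, which sets the values of other probes beside each name, 1 probe was called, 1 higher and 0 lower, and 1 was at least 2-fold, 1 higher and 0 lower; limma called so few with the probes of 1 array misplaced. In that order 31 named genes changed sign: Slc25a25 0.19, Crtap 0.16, Asns 1.47, Lcn2 -0.68, Ccl2 -0.11, Slc22a6 0.92, Egf 1.91, Gatm 1.46, Dio1 1.17, Alad 0.65, Plk2 -0.91, Il1b -0.84, Slc7a7 0.68, Ehhadh 0.54, Slc25a20 0.34, Atp5pb 0.65, Atp5mc1 0.56, Slc16a3 0.22, Bhlhe40 0.33, Cdk1 0.55, Cks2 0.66, Gstt2 0.93, Gstm5 0.41, Cyp2e1 1.68, Slc7a5 -0.32, Slc7a9 0.99, Vwf 0.26, Tagln 0.44, Eln 0.05, Ucp1 0.40 and Csrp3 -1.57. Il6, which was not called, gave -0.06 without mercury rat 2. The 3 rats a group and signals near the floor limit what these arrays can show; at an adjusted p under 0.05 the smallest called difference was 0.29 on the log2 scale, and 3066 probes had an unadjusted p under 0.05.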

Other observations

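Untreated normal rats 11 and 12, which share the missing probes of these 6 arrays, were in neither group but entered the fit of all groups together. They give a level for kidneys with neither surgery nor mercury. For 277 of the 279 probes called at least 2-fold both had values, and their mean lay nearer the sham mean for 251 and nearer the mercury mean for 26. Of the 134 higher probes 5 lay nearer the mercury mean, and of the 143 lower probes 21 did. Among them, Slc25a25 stood at 0.568 and 0.583 in the normal rats, below the mercury mean of 1.39 and the sham mean of 4.54 (geometric means, in array medians). Cldn3 stood at 1.07 and 1.11, near the mercury mean of 0.858 and under the sham mean of 2.91. Pdk4 stood at 0.206 and 0.192, below the mercury mean of 0.251 and the sham mean of 0.659. Tmem82 stood at 0.342 and 0.375, between 0.196 in mercury and 0.745 in sham rats. The dimmer probe of Pex11a was among them too, while its brighter probe stood at 1.91 and 1.67, between 0.802 and 3.9. Outside those 26, Zfp354a stood at 4.61 and 4.75, between 2.16 and 10. Klf10, which fell less than 2-fold, stood at 0.421 and 0.375, below the mercury mean of 0.549 and the sham mean of 0.921. Mt1 stood at 62.2 and 48.4, against 168 in mercury and 114 in sham rats, so sham rats were above the normal rats too. Hmox1 stood at 0.826 and 0.636, Hspa1a at 1.13 and 1.15 and Srxn1 at 0.558 and 0.327, each below the sham mean (1.91, 2.27 and 1.03). G6pc1 stood at 16.4 and 20.2, against 20 in sham and 2.38 in mercury rats. With 2 normal rats, no test was run.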
